A study of Mus musculus with 9 samples.

Results

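The T cell receptor (TCR) complex and the proteins that act next to it were followed at the level of mRNA in 4T1 primary tumors treated with the focal adhesion kinase (FAK) inhibitor BI 853520, abbreviated BI. The 9 genes were taken by name: the CD3 chains Cd3d, Cd3e and Cd3g, the zeta chain Cd247, the coreceptors Cd4 and Cd8a, the kinases Lck and Zap70, and the adaptor Lat. Their rows were found by Entrez identifier among the 18755 genes of the deposited counts, and all 9 passed the filter on low counts, as did 13966 genes in total. 4T1 is a mammary carcinoma cell line of BALB/c origin, and 1000000 cells were injected into a mammary fat pad of female BALB/c mice of 6 to 10 weeks, which have an intact immune system. From day 15, mice were given for 5 days either BI at 50 mg/kg or the vehicle, 0.5% Natrosol. The same growth and extraction protocols are given for both groups. Whole tumor pieces gave 1 library per tumor, 3 with vehicle (replicates 1 to 3) and 6 with BI (replicates 4 to 9, numbered as in the sample descriptions). Only tumors with RNA of sufficient quality entered the analysis of the original study.

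The TCR recognizes a peptide held by an MHC molecule but has no signaling domain of its own. The CD3 chains and the zeta chain carry the tyrosine motifs that Lck phosphorylates, with Lck brought close by the tail of CD4 or of CD8. Zap70 then docks on the phosphorylated motifs and phosphorylates Lat, a membrane adaptor on which the phospholipase and the Ras and calcium branches of the response are assembled. In a tumor, these genes are read mainly as marks of infiltrating T cells. Several of them are not restricted to T cells: NK cells use the zeta chain, Lck, Zap70 and Lat, mast cells and platelets use Lat, and a subset of dendritic cells carries CD8 alpha on its surface.

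Of the 9 genes, 8 were higher in BI-treated than in vehicle-treated tumors in edgeR's quasi-likelihood test (Benjamini-Hochberg adjusted p no larger than 0.05), and none was lower. Over all 13966 genes tested, 14.6% rose by the same criterion and 1973 genes fell. The log2 fold changes of these 8 genes lay between 0.98 and 1.23, about a doubling, and for each of them every BI-treated tumor was above every vehicle-treated tumor, an arrangement that 14.1% of all genes tested showed. The exception was Cd4, with a log2 fold change of 0.39 and an adjusted p of 0.192. At the cutoffs of the original study, an unadjusted p up to 0.05 with at least a 1.5-fold change, the same test again gave 8 of the 9 genes, beside 9.57% of all genes tested. The median log2 fold change was 1.11 over the 9 genes and -0.0037 over all genes tested. In bulk tumor RNA, more cells of a type and more RNA per cell cannot be told apart.

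Cd3d, Cd3e and Cd3g are neighbors on chromosome 9, within 40019 bases of the mouse assembly mm9. Cd3d (from 44789876 to 44795135, plus strand) and Cd3g (from 44777655 to 44788514, minus strand) lie head to head, with 1362 bases between their starts, and Cd3e (from 44806826 to 44817673, minus strand) lies behind Cd3d. The RefSeq sequences from 250 bases before to 50 bases after the starts of these CD3 genes are shown, 5′ to 3′ on the strand of each gene. That of Lat was added because it holds motifs for both ETS and RUNX factors, as Lck and Zap70 also do. Whether the genes share a control was not tested. Each sequence matched mm9 at 1 place. Capitals mark AGGAAG, a core bound by ETS factors, on either strand. In Lat they also mark TGTGGT, which RUNX factors bind.
Cd3d, chr9:44789619-44789918, plus strand: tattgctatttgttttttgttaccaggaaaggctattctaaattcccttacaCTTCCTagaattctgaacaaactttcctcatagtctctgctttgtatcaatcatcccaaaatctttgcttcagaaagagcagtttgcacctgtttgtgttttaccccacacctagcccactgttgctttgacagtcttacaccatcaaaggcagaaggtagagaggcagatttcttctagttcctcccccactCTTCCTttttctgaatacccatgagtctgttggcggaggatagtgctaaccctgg
Cd3g, chr9:44788465-44788764, minus strand: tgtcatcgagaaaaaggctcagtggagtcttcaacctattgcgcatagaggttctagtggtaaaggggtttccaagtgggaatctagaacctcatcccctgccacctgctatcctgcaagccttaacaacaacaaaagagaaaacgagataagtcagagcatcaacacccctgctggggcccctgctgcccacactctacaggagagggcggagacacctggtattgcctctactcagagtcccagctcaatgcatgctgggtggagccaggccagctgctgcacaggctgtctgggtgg
Cd3e, chr9:44817645-44817944, minus strand: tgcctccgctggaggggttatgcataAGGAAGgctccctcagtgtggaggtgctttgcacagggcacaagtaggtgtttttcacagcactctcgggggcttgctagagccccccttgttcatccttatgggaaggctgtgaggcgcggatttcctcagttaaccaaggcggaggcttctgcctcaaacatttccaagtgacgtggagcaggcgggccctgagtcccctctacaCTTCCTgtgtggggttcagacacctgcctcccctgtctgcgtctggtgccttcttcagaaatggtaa
Lat, chr7:133513033-133513332, minus strand: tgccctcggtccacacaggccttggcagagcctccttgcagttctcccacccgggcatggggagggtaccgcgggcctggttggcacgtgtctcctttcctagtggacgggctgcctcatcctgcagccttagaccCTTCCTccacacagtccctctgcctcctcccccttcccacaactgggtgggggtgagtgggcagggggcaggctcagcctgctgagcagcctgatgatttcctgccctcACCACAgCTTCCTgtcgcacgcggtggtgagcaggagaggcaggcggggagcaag

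The promoter table held 11 such windows of 300 bases for 8 of the 9 genes, with Cd4 not matched. Zap70 has 3 of these windows and Lck 2. AGGAAG was present in 8 of the 11 windows, of 6 genes (Cd3d, Cd3e, Cd247, Lck, Zap70 and Lat), and 35.4% of all 32851 windows held it. TGTGGT was present in 3 of 11 (1 each of Lck, Zap70 and Lat) and in 16.8% of all windows. CTTTGA, the core bound by TCF factors, was present in 3 of 11 (1 each of Cd3d, Cd247 and Zap70) and in 16% of all windows. AGATAA, which erythroid and T cell zinc finger factors of the Gata family bind, was found in 1 of 11 (Cd3g) and in 11.2% of all windows. The E-box CANNTG occurred in all 11 and in 72.3% of all windows. The cyclic AMP element TGACGTCA was found in 1 of 11 (Zap70, 1.79% of all windows), where it overlaps the CTTTGA, and TATAAA, which helps place the start in many genes, in none of the 11 (13.6% of all windows). No other pair of these motifs overlapped in the windows of the 8 genes. These are matches of letters, and binding was not measured.

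Cd3e encodes the epsilon chain, which pairs with both the delta and the gamma chain. It had 12.2, 12.3 and 13.0 counts per 1000000 counts of the library (CPM) in vehicle replicates 1, 2 and 3, and from 21.2 to 31.8 CPM with a median of 27.9 in the 6 BI-treated tumors. The groups did not overlap, and the lowest BI-treated tumor was replicate 4. The log2 fold change was 1.14 (standard error 0.126, quasi-likelihood test of edgeR, adjusted p = 8.58e-05), which was the smallest adjusted p among the 9 genes.

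Cd3g, the gamma chain, had 11.9, 13.4 and 11.7 CPM in vehicle replicates 1, 2 and 3. In BI-treated tumors it ranged from 18.9 to 31.3 CPM with a median of 26.9. Replicate 4 was again the lowest and replicate 9 the highest, and the log2 fold change was 1.08 (standard error 0.151, adjusted p = 0.00036, same edgeR test).

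Cd3d, the delta chain, was read at a lower level, with 4.91, 3.62 and 4.68 CPM in vehicle replicates 1, 2 and 3. The BI-treated tumors lay between 7.53 and 12.1 CPM with a median of 9.51. All of them were above the vehicle-treated tumors, and the log2 fold change was 1.11 (standard error 0.165, adjusted p = 0.000563, same edgeR test).

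Cd247 (chromosome 1, from 167718812 to 167807407, plus strand) encodes the zeta chain, which carries the largest number of signaling motifs in the complex. It had 3.85, 2.19 and 2.53 CPM in vehicle replicates 1, 2 and 3, with only 49 counts in replicate 2, the fewest of any of the 9 genes in any tumor. The BI-treated tumors ranged from 4.63 to 7.73 CPM with a median of 6.77. The groups were separate but closer than for the CD3 chains, and the log2 fold change of 1.18 had the largest standard error of the 9 genes (0.226, adjusted p = 0.00258, same edgeR test). Its exons share bases with Gm16565 on the same strand and with Pou2f1 on the other, and the sources used here do not state whether counting used the strand.

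**Figure D1:**
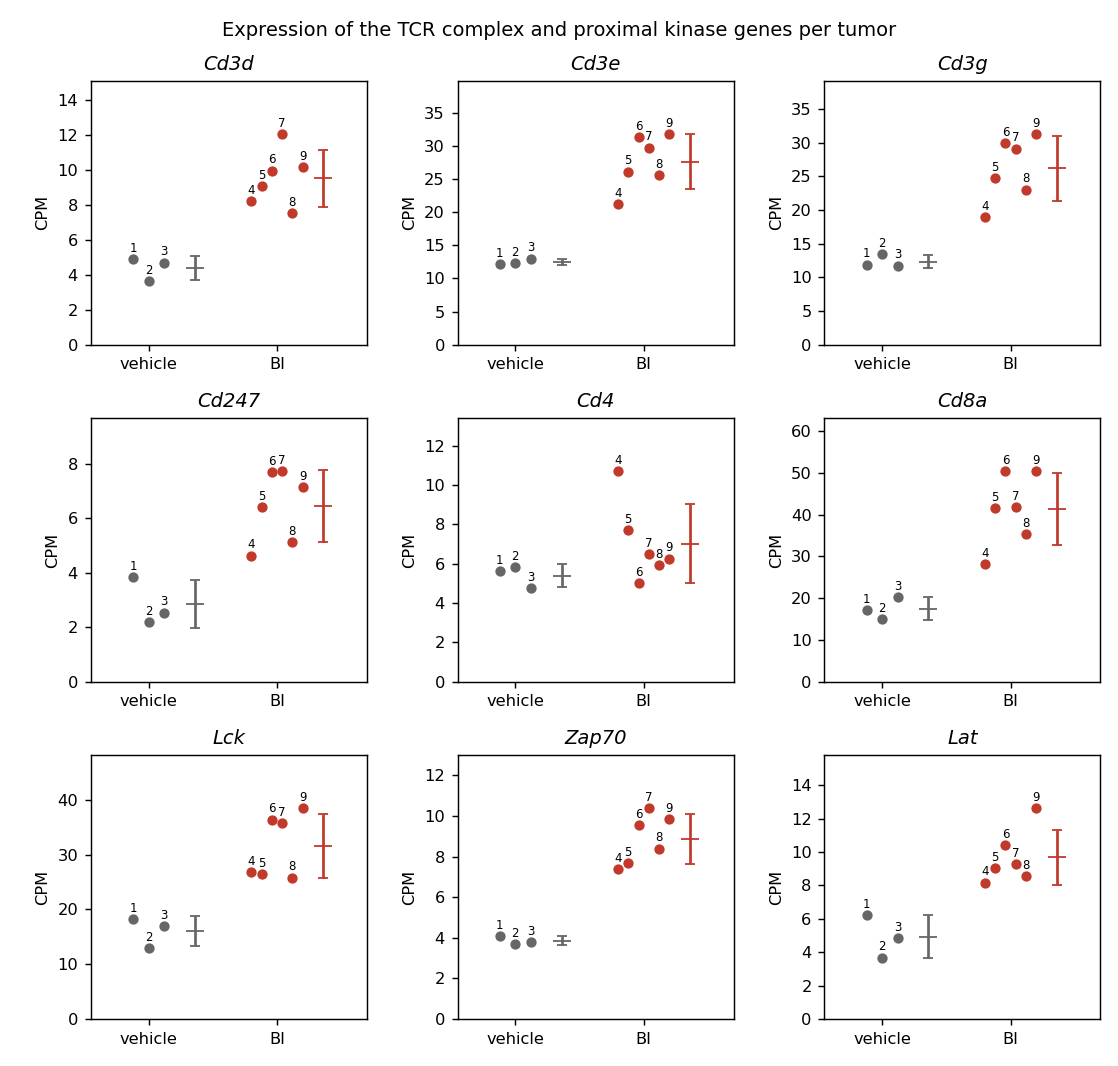
Normalized expression (CPM, axes from 0) of the 9 genes in each tumor, 1 panel per gene. Points are tumors labelled by replicate number, gray for vehicle and red for BI, and the bar beside them gives mean and SD over 3 or 6 tumors. In 8 panels the groups are separate, while the panel of Cd4 shows BI replicate 4 at 10.7 CPM and BI replicate 6 at 5.02 CPM, within the vehicle range.

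Of the coreceptors, Cd8a passed the test and Cd4 did not. Cd8a (chromosome 6, from 71323421 to 71329165, plus strand) encodes the alpha chain of CD8, which binds MHC class I. It had 17.2, 15.0 and 20.3 CPM in vehicle replicates 1, 2 and 3 and from 28.2 to 50.5 CPM, median 41.7, in BI-treated tumors. Its log2 fold change of 1.23 was the largest of the 9 genes (standard error 0.177, adjusted p = 0.000439, edgeR's quasi-likelihood test). Cd8b1, the partner chain in the form of CD8 found on conventional T cells, was listed among the other genes of the pathway and had a log2 fold change of 1.22 (adjusted p = 0.00063, same edgeR test), from 6.66 ± 1.90 CPM (SD, n = 3) to 15.5 ± 2.64 CPM (SD, n = 6).

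Cd4 (chromosome 6, from 124814710 to 124838239, minus strand) encodes the coreceptor for MHC class II. It had 5.64, 5.82 and 4.74 CPM in vehicle replicates 1, 2 and 3, and 10.7, 7.72, 5.02, 6.48, 5.94 and 6.26 CPM in BI replicates 4 to 9. Replicate 4 alone was far above the vehicle-treated tumors, 4 others were above them and replicate 6 lay among them. The 95% interval of the log2 fold change ran from -0.08 to 0.85. No change lay inside it, and the estimates of the other 8 genes (0.98 or more) lay outside. Among their intervals, those of Cd3e and Zap70 began above it (0.87 and 0.89). Others overlapped it, such as those of Lck (from 0.63) and Lat (from 0.58). The ratio of Cd4 to Cd3e, given below, did not pass (adjusted p = 0.381, exact permutation test). Leaving out BI replicate 4 gave Cd4 a log2 fold change of 0.22 (adjusted p = 0.314, same edgeR test). Cd4 was counted with 104 reads or more in every tumor, which gives a counting error of at most 9.81% per tumor, against an SD of 28.7% of the mean over the BI-treated tumors.

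Both kinases rose. Lck (chromosome 4, from 129225588 to 129250885, minus strand), the Src family kinase bound to the coreceptors, had 18.2, 13.0 and 17.0 CPM in vehicle replicates 1, 2 and 3. BI-treated tumors had 25.8 to 38.5 CPM with a median of 31.3. Replicates 6, 7 and 9 were the high ones, and the log2 fold change was 0.98 (standard error 0.16, adjusted p = 0.00101, edgeR's quasi-likelihood test).

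Zap70 (chromosome 1, from 36818695 to 36839663, plus strand), the kinase recruited to the phosphorylated chains, had 4.08, 3.67 and 3.80 CPM in vehicle replicates 1, 2 and 3. The BI-treated tumors had 7.37 to 10.4 CPM with a median of 8.98. The vehicle-treated tumors were close to each other, and the log2 fold change was 1.20 (standard error 0.143, adjusted p = 0.000133, same edgeR test).

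Lat (chromosome 7, from 133507346 to 133513057, minus strand) had 6.23, 3.67 and 4.86 CPM in vehicle replicates 1, 2 and 3 and 8.17 to 12.6 CPM, median 9.14, in BI-treated tumors. It had the smallest log2 fold change of the 8 genes that rose, 0.98 with a standard error of 0.182 (adjusted p = 0.00227, same edgeR test). Vehicle replicate 2 was the lowest vehicle-treated tumor for 6 of the 9 genes (Cd3d, Cd247, Cd8a, Lck, Zap70 and Lat).

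**Figure D2:**
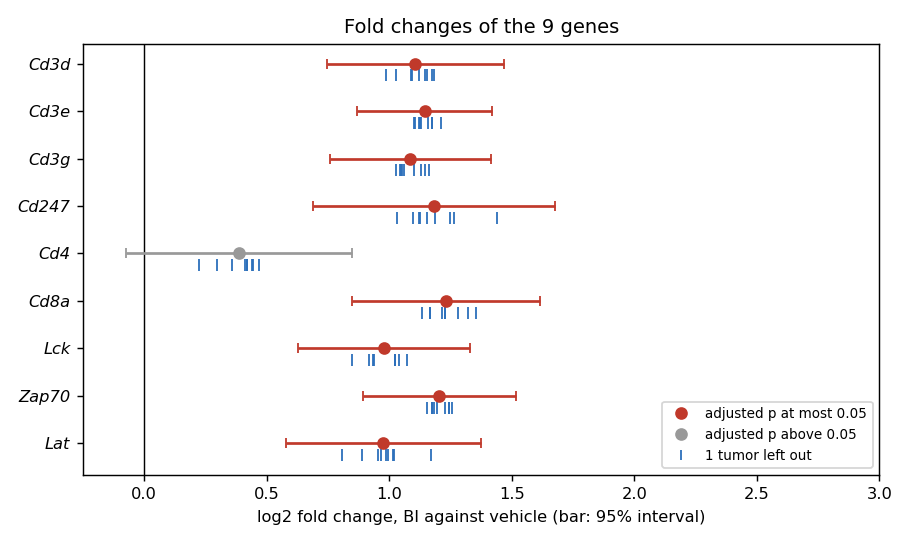
Log2 fold change of BI against vehicle for the 9 genes (circles, with bars for the 95% interval), red for genes with adjusted p no larger than 0.05 by the quasi-likelihood test and gray where it was above. Blue ticks give the value with each of the 9 tumors left out in turn; those of Cd4 lie between 0.22 and 0.47, and those of the other 8 genes between 0.81 and 1.44.

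Each of the 8 calls held with any 1 tumor left out, with adjusted p values of at most 0.0196 (Cd247) in edgeR's quasi-likelihood test. A 2-fold limit would leave 6, since Lck and Lat were just under it.

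Levels were compared between genes per length, as CPM per kilobase of the deposited gene length. In vehicle-treated tumors Cd3g was highest (12.1 ± 0.917 CPM per kilobase, SD, n = 3), followed by Cd3e (8.69 ± 0.309), Lck (6.98 ± 1.18), Cd8a (5.60 ± 0.845), Lat (3.99 ± 1.04), Cd3d (3.31 ± 0.515), Zap70 (1.77 ± 0.0964), Cd4 (1.74 ± 0.186) and Cd247 (0.621 ± 0.19). The ranges of Lck and Cd8a, of Cd8a and Lat, of Lat and Cd3d, and of Zap70 and Cd4 overlapped. The order of the means was the same in BI-treated tumors, where Cd3g reached 25.6 ± 4.66 CPM per kilobase (SD, n = 6) and Cd247 1.40 ± 0.286. There only Cd3d and Zap70 were neighbors without overlap. Even so, Cd3g was above Cd3e, Cd3e above Lck and Cd8a above Lat in 6 of 6 tumors each. Lck was above Cd8a in only 3 of 6. Zap70 and Cd4, level in vehicle-treated tumors, stood at 4.07 ± 0.569 and 2.27 ± 0.65 CPM per kilobase in BI-treated tumors. The deposited length of Cd247, 4604 bases, pools its transcripts, and its level per length depends on that.

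Among the BI-treated tumors, replicate 4 was the lowest for 6 genes (Cd3e, Cd3g, Cd247, Cd8a, Zap70 and Lat) and the highest for Cd4. Replicate 8 was lowest for Cd3d and Lck, and replicate 6 for Cd4. Replicate 9 was highest for Cd3e, Cd3g, Lck and Lat, replicate 7 for Cd3d, Cd247 and Zap70, and replicate 6 for Cd8a. The 9 genes together took 72.6 to 84.2 CPM in vehicle-treated and 134 to 198 CPM in BI-treated tumors.

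Ratios within a tumor show whether the genes kept step with each other. They are differences of log2 CPM, 12 of them were tested, and none passed an adjusted p of 0.05 in the exact permutation test over the 84 divisions of the 9 tumors (two-sided). With 12 ratios, at least 6 of them would need the smallest p the test allows (0.0238) to pass, and a single ratio had an unadjusted p under 0.05. Relative to Cd3e, the differences between the groups were -0.04 for Cd3d, -0.07 for Cd3g, 0.04 for Cd247, 0.09 for Cd8a, -0.16 for Lck, 0.05 for Zap70 and -0.15 for Lat, each with an unadjusted exact p of at least 0.262. For Cd4 the difference was -0.79 (exact p = 0.0952, adjusted 0.381).

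The Cd8a to Cd4 count ratio was 3.06, 2.58 and 4.28 in vehicle replicates 1, 2 and 3, and 2.63, 5.39, 10.05, 6.46, 5.94 and 8.06 in BI replicates 4 to 9. In 5 of 6 BI-treated tumors it was above every vehicle-treated tumor, and in replicate 4 it was within the vehicle range. The difference of the mean log2 ratio was 0.88 (two-sided exact p = 0.0714 by permutation, adjusted 0.381), and it ran from 0.72 (without vehicle replicate 2, exact p = 0.214) to 1.11 when single tumors were omitted. The highest value was the one without BI replicate 4, with 5 of 5 tumors above (exact p = 0.0357, adjusted p = 0.143, where 0.0357 is the smallest p that 3 against 5 tumors allow).

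**Figure D3:**
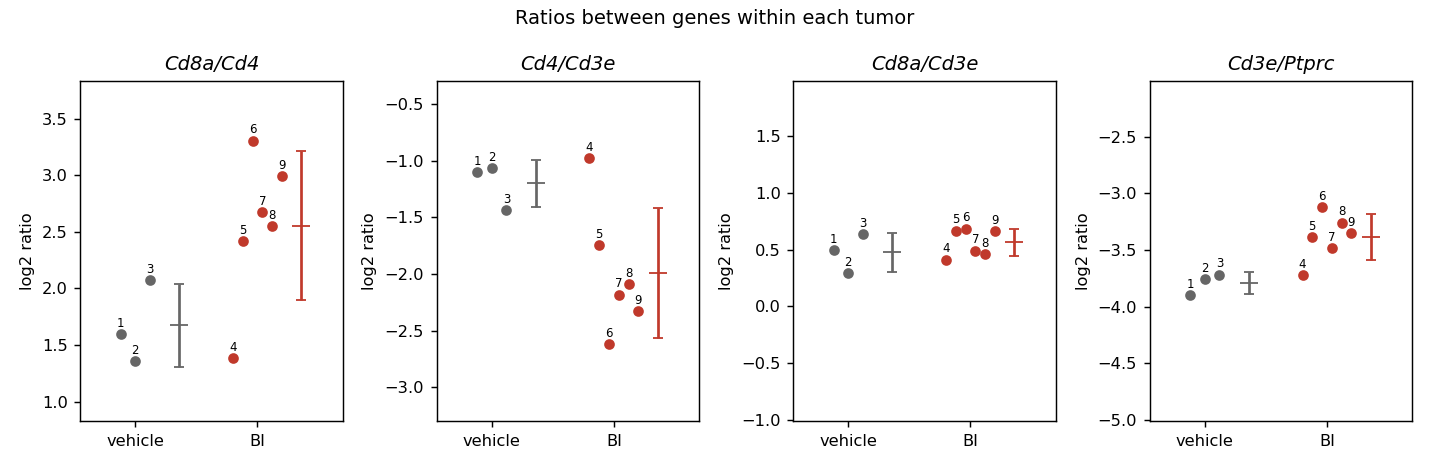
Log2 ratios between genes in each tumor, every panel spanning the same range of the log2 scale. Points are tumors labelled by replicate number, gray for vehicle and red for BI, with mean and SD beside them. BI replicate 4 lies at 1.39 for Cd8a to Cd4, among the vehicle-treated tumors, and the other BI-treated tumors lie between 2.42 and 3.31, while Cd8a to Cd3e overlaps between the groups.

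Ptprc, the CD45 phosphatase that primes Lck and marks all leukocytes, served as a measure of leukocyte RNA. It rose by a log2 fold change of 0.73 (adjusted p = 0.000225, edgeR's quasi-likelihood test), from 174 ± 7.98 CPM to 289 ± 33.7 CPM. The log2 ratio of Cd3e to Ptprc was 0.40 higher after BI, and 5 of 6 tumors exceeded the vehicle range (two-sided exact p = 0.0476 by permutation, adjusted 0.381). Against Ncr1, an NK cell receptor, and Cd79b, a B cell receptor chain, the differences were -0.0029 and -0.0068 (exact p of at least 0.929), with SDs of the log2 ratio of 0.83 and 0.45 over the BI-treated tumors. Each rests on a single marker, and Cd79a, the partner chain of Cd79b, had a log2 fold change of -0.33 (adjusted p = 0.421, edgeR's quasi-likelihood test) where Cd79b had 1.13.

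Of 81 other genes of TCR signaling, in 7 lists by role, 80 were tested. Of these, 55 passed upward and 2 downward with adjusted p no larger than 0.05 in edgeR's quasi-likelihood test. The share rising was 68.8%, beside 14.6% of all 13966 genes tested, of which 1973 fell. The median log2 fold change of the 80 genes was 0.55. Many of these genes are also used by myeloid cells and the part of those cells was not tested. With each tumor left out in turn, 38 of the 55 kept the call every time.

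Among partners of the TCR complex and its coreceptors, 9 of 10 genes tested rose (median log2 fold change 0.79). The smallest p values were those of Cd2, an adhesion receptor of T and NK cells (1.16, from 4.31 ± 0.855 to 9.61 ± 1.19 CPM), Cd8b1, and Cd27, a costimulatory receptor (1.06, from 3.23 ± 0.121 to 6.77 ± 1.17 CPM). Of the other kinases, 6 of 7 rose (median 0.65). Syk, the relative of Zap70 in B and myeloid cells, rose by 0.65 from 64.9 ± 2.99 to 102 ± 8.52 CPM, Fyn, a Src family kinase, by 0.55, and Prkcq, the protein kinase C of the T cell synapse, by 1.19.

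Of the genes that regulate Lck, 8 of 10 rose (median 0.49). Beside Ptprc these included Sh2d2a, an adaptor that binds Lck, with a log2 fold change of 1.41 (4.30 ± 0.245 to 11.4 ± 2.75 CPM), and Ptpn6, the phosphatase SHP-1 (0.58). Of the genes that assemble with Lat and SLP-76, 10 of 15 rose and 1 fell (median 0.87). Fyb (0.90), Lcp2, which encodes SLP-76 itself (0.95, from 55.5 ± 6.57 to 107 ± 15.1 CPM), and Vav1, an exchange factor for Rac (0.87), had the smallest p values. Plcg1, the phospholipase recruited by Lat, fell by 0.22 on the log2 scale (adjusted p = 0.0441, edgeR's quasi-likelihood test), a call lost without any one of vehicle replicates 2 and 3 and BI replicates 4, 7, 8 and 9 (highest adjusted p 0.216, same edgeR test).

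Downstream of Lat, 8 of 14 genes rose (median 0.38), led by the calcium-regulated factor Nfatc2 (1.04, from 23.0 ± 0.583 to 47.3 ± 2.37 CPM), the calcium channel Orai1 (0.61) and the Ras activator Rasgrp1 (0.83). Of 12 negative regulators 7 rose (median 0.29), led by the phosphatase Inpp5d (0.92), the adaptor Sla (0.96) and Ubash3a (1.18), a phosphatase-like protein that restrains Zap70. Of 12 transcription factors of T cells, 7 rose and 1 fell (median 0.66). Among those that rose, Ikzf1 (0.93), Ikzf3 (1.26) and Tbx21, the T-bet factor of type 1 and cytotoxic responses (1.60, from 1.46 ± 0.126 to 4.43 ± 1.00 CPM), had the smallest p values. Ets1 fell by 0.52 on the log2 scale from 203 ± 18.4 to 142 ± 6.26 CPM. Its level was far above that of Cd3e (12.5 ± 0.444 CPM in vehicle-treated tumors), and which cells its RNA came from was not tested.

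**Figure D4:**
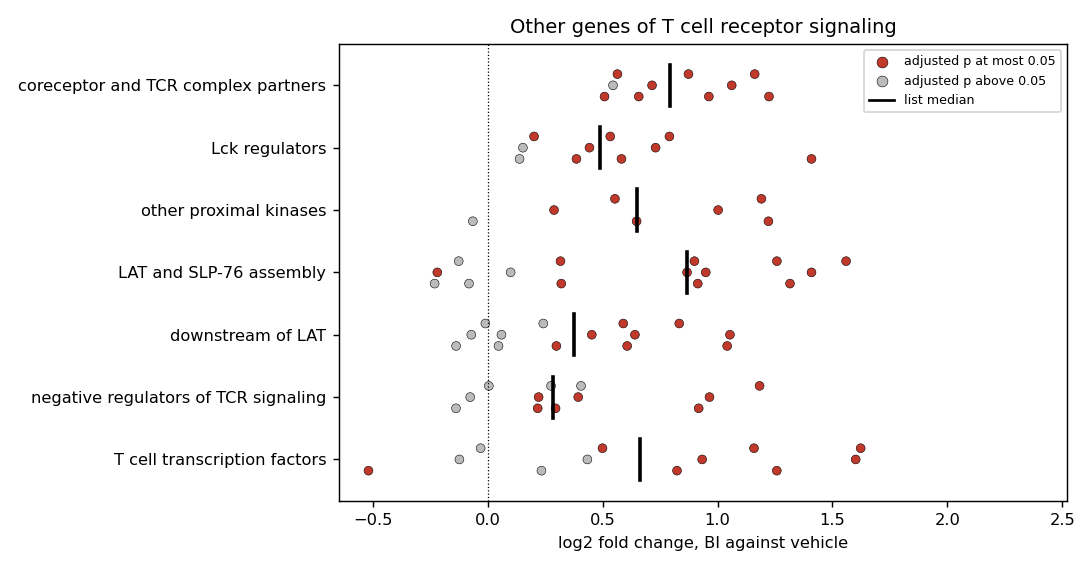
Log2 fold change of BI against vehicle for the 80 other genes of TCR signaling that were tested, by role, red for genes with adjusted p no larger than 0.05 by the quasi-likelihood test. Vertical bars are list medians, height within a row has no meaning, and the 2 red points left of 0 are Plcg1 and Ets1.

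Genes with the pattern most like the CD3 chains were sought by the root mean square difference of log2 CPM, centered over the 9 tumors, from the mean of Cd3d, Cd3e and Cd3g. Leaving the 9 genes themselves aside, the 5 nearest of the genes tested lay between 0.077 and 0.0927 log2 units, where the median gene lay at 0.574. Ikzf3, the lymphocyte factor named above, was one of them. Pira1, a member of the paired immunoglobulin-like receptor family of myeloid and B cells, was another. The remaining 3, Entrez genes 18724, 18727 and 18730, had no symbol in RefSeq. Of the 5 genes, 4 formed 2 pairs with equal counts in every tumor, so that their reads cannot be assigned to 1 gene. Pira1 was paired with 18724, and 18727 with 18730. On the same measure, the 3 chains themselves lay at 0.0564 (Cd3e), 0.0902 (Cd3g) and 0.124 (Cd3d) from their mean. All 5 nearest genes were thus closer to it than Cd3d. Zap70 was the nearest of the 9 genes outside the 3 chains (0.0848), followed by Lck (0.142), Cd8a (0.15), Cd247 (0.195) and Lat (0.203), and Cd4 was the farthest (0.555).

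T cell markers and markers of other cells were read in the same libraries. The 8 T cell markers summed to 54.3 to 56.7 CPM in vehicle-treated and 80.9 to 110 CPM in BI-treated tumors, but 3 of them are the CD3 chains described above. The other 5, which are also counted in the lists by role, summed to 25.4 to 27.3 and 30.1 to 36.6 CPM. Of these Cd5 (0.66), Cd6 (0.71) and Bcl11b (1.16) rose, the call of Cd5 being lost without vehicle replicate 1 or 3, and Trat1 did not pass the filter on low counts. Tcf7, a factor of naive and memory T cells, had 15.7 ± 1.47 and 14.4 ± 1.32 CPM and an adjusted p of 0.378 in edgeR's quasi-likelihood test.

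Among other cells that use these genes, most markers of NK, dendritic and mast cells rose, and most of those of platelets did not. Of all genes tested, 14.6% rose. Of 6 NK cell markers tested 5 rose (median log2 fold change 1.18), with summed levels of 18.5 to 23.4 CPM in vehicle-treated and 38.9 to 54.5 CPM in BI-treated tumors. The most abundant of them per length was Klrk1, which activated CD8 T cells also express (9.79 ± 2.06 to 23.6 ± 3.93 CPM), and Ncr1 was at 1.33 ± 0.346 and 3.27 ± 1.71 CPM. The call of Ncr1 was lost without any one of the 3 vehicle-treated tumors or BI replicate 9, and that of Gzma without vehicle replicate 1 or 3. Of 8 markers of CD8 alpha dendritic and plasmacytoid cells 7 rose (median 0.99, summed levels 102 to 128 and 155 to 174 CPM). Irf8 (log2 fold change 0.45), the most abundant per length, made up most of these sums, at 96.6 ± 12.7 and 132 ± 5.89 CPM. Of the 7 calls, 5 held with every tumor left out in turn (not Clec9a and Cd209a). Of 8 mast cell markers 6 rose and 1 fell (median 2.84, summed levels 63.5 to 81.3 and 73.7 to 393 CPM). Hdc, the one that fell, made up most of the vehicle sums (40.7 ± 3.66 CPM, and 26.0 ± 6.74 CPM after BI). Tpsb2, the most abundant per length, went from 5.09 ± 3.28 to 46.7 ± 33.5 CPM. The calls of Fcer1a and of Hdc were lost without vehicle replicate 2 or 3. Of 6 platelet markers tested 1 rose, Gp1ba, read at or under 0.0458 CPM in vehicle-treated tumors, and the list summed to 131 to 158 and 111 to 156 CPM, mostly from Itgb3 and Pf4.

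The part of NK cells, dendritic cells and mast cells in the rises of Cd247, Lck, Zap70, Lat and Cd8a was not tested. All 8 macrophage markers rose (median 0.92, summed levels 1693 to 2219 and 3340 to 4039 CPM, C1qa the most abundant per length), the call of Mrc1 being lost without vehicle replicate 1 or 3. Of 8 epithelial markers of the tumor cells none rose and 2 fell (median 0.13), beside 1973 of all 13966 genes tested that fell. The list summed to 963 to 1190 and 757 to 967 CPM. Krt18, the most abundant, fell by 0.50 on the log2 scale, and Krt8 fell by 0.28, a call lost without any one of 6 tumors (highest adjusted p 0.195, edgeR's quasi-likelihood test). Of the 6 that did not pass, Epcam (1.06), Esrp1 (0.75), Cdh1 (0.16), Krt19 (0.15) and Cldn7 (0.11) had positive and Cldn4 (-0.67) a negative log2 fold change.

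Markers of a lymph node were read because a node may lie in the fat pad. Madcam1, Glycam1, Cr2 and Fcer2a, which mark its vessels and follicles, were at or under 0.313 CPM in every tumor, while Cxcl13 rose (log2 fold change 3.05, from 5.03 ± 3.19 to 40.9 ± 35.6 CPM), a call lost without vehicle replicate 3. The most abundant gene of that list, Clu, is widely expressed and had a log2 fold change of -0.09. Ccl21a and Ccl19, also on that list, were not matched in the counts and could not be read. Of 6 B cell markers tested 3 rose, and the list summed to 8.54 to 12.1 and 13.2 to 21.3 CPM. Its most abundant gene per length, Cd79b, rose by 1.13, a call lost without vehicle replicate 2 or 3 or BI replicate 7, and of the 3 calls only that of Cd22 (1.49) held with every tumor left out in turn. Ms4a1, which encodes CD20, stayed at or under 0.675 CPM in every tumor.

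**Figure D5:**
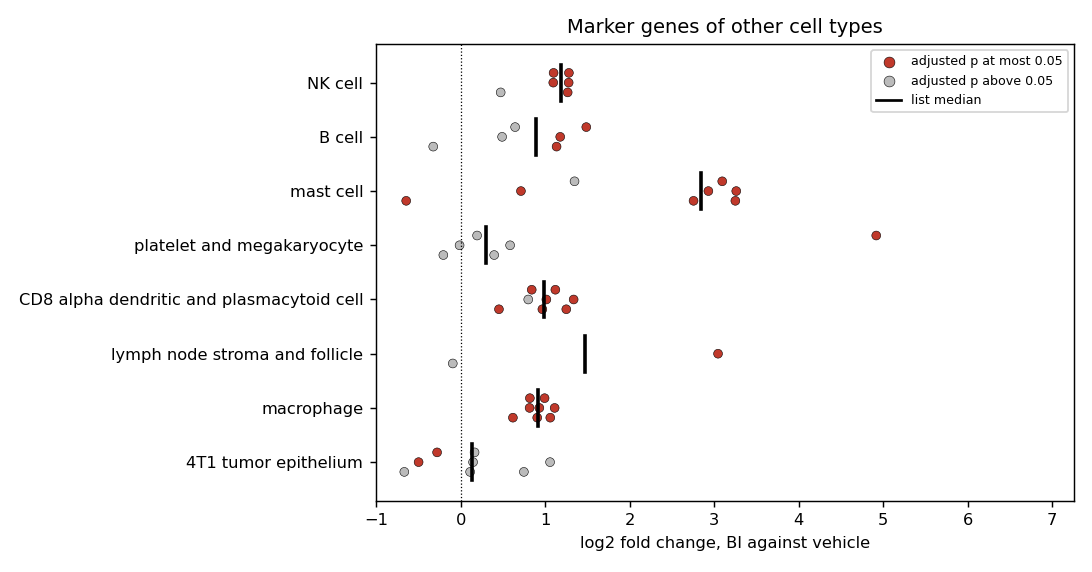
Log2 fold change of BI against vehicle for marker genes of 8 other cell types or tissues, red for genes with adjusted p no larger than 0.05 by the quasi-likelihood test, with list medians as vertical bars. Height within a row has no meaning, and Gp1ba, at the far right of the platelet row, rests on near-zero levels in vehicle-treated tumors.

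Library totals ran from 16931607 to 33850245 counts (median 20972840), so that the floor of 3 counts corresponded to at most 0.177 CPM, and none of the 9 genes was near it. TMM factors lay between 0.984 and 1.02. The labels name no batch, and pairs of tumors of 1 group differed by more than counting error (mean chi-square per gene of 8.48 or more). The labels give each tumor its own identifier without stating that each came from a separate mouse. The p values set the difference between the groups against the spread between these tumors.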

How the data were processed

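Libraries were stranded mRNA libraries sequenced from both ends. The authors aligned reads to mm9 with STAR, kept unique hits, and counted reads starting in an exon of a RefSeq gene with QuasR (whether by strand is not given in the sources used here). They deposited the raw counts for 18755 genes, and beside the counts a gene length in bases, which was used here only for CPM per kilobase. Symbols came from RefSeq by Entrez identifier (18700 genes), positions from GENCODE on the same assembly, and promoter windows from RefSeq, located in mm9 by exact match.

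The deposited counts entered edgeR 4.0.16 (R 4.3.3) with TMM factors, filterByExpr (minimum count 10, total 15), and the quasi-likelihood test of BI against vehicle over all genes, with Benjamini-Hochberg adjustment. Standard errors are the log2 fold change over the square root of F, and intervals are at 95%. Ratios were taken on log2 CPM (prior count 2). On simulated counts (200 genes made 2-fold different, 196 of them among the 13883 tested) the test called 170 changed and 8 unchanged genes. In the tumors 2040 genes rose and 1973 fell, so the simulation does not show how the test behaves with that many changes. Alternatives were RLE, library size, other filters, the likelihood ratio test, DESeq2 1.42.0, limma-voom 3.58.1, a 2-fold limit, a prior count of 0.5 and each tumor left out. Named genes were the 9 members, per pathway list up to 3 called genes with the smallest p in each direction, per marker list the most abundant gene per length and any at 0 in every tumor (there was none), and the 5 genes nearest to the CD3 mean. Others (such as Tcf7, Ncr1, Cd79a, Ms4a1, and the other marker genes given with values or lost calls) were named after their values were seen. Of 145 list entries, 4 (Klra8, Klra4, Ccl21a and Ccl19) were not matched. The members and lists were chosen with earlier results of these data known.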

Additional observations from a re-analysis of the deposited data

How the results depend on the processing

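The number of the 9 genes called higher was 8 under RLE, library size, both other filters, the likelihood ratio test, DESeq2, limma-voom and with each tumor left out, and 6 with a 2-fold limit. The log2 fold change of Cd4 ranged from 0.22 to 0.47 with each tumor left out and its adjusted p stayed above 0.05 under every alternative (lowest 0.101, edgeR without BI replicate 6). Of the other genes of TCR signaling, 43 to 54 rose with each tumor left out (43 without vehicle replicate 2 or 3) and 54 to 56 under the other alternatives, while the number that fell was 1 to 2 with each tumor left out and 1 with no filter on low counts or a filter of 1 CPM in 3 tumors. Ratios that passed no test changed sign with tumors left out: Cd3d to Cd3e (-0.16 to 0.059), Cd3g to Cd3e (-0.13 to 0.0064), Cd247 to Cd3e (-0.12 to 0.28), Cd8a to Cd3e (-0.0043 to 0.17), Lat to Cd3e (-0.33 to 0.053), Cd3e to Ncr1 (-0.21 to 0.28) and Cd3e to Cd79b (-0.38 to 0.28). The cause was not tested. No paired analysis was possible because the labels link no vehicle-treated tumor to a BI-treated one. Counting error was at most 14.3% per tumor (Cd247, 49 counts in vehicle replicate 2), where the SD between tumors of that gene was 30.6% of the mean with vehicle and 20.4% with BI.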
